A study of Rattus norvegicus with 6 samples.

Results

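The miRNA miR-224 is made from a single hairpin, and its 2 strands, miR-224-3p and miR-224-5p, are described here in left ventricular heart muscle of rats. They were chosen as the 2 of 758 rat miRNAs on the array that carry this name, with 4 of the 1806 probes and 32 spots per array. They were chosen by measured values, the diet differences of these same arrays: miR-224-3p was 1 of the 2 miRNAs whose signal differed between the diets after adjustment for all 425 miRNAs tested (0.471%), and miR-224-5p was known to be near background. Their differences between the diets are therefore given as descriptions, with no test. The 6 total RNA samples, all from the left ventricle of male Wistar rats, are 3 controls fed normal chow and 3 fed a high-fat diet, in both cases for 20 weeks. The labels call the high-fat samples obese and give no age, genotype change or further agent, and they do not say whether the 3 samples of a diet are separate animals, so the spread between samples may in part be technical. Each sample was labelled with Cy3 and hybridised to 1 single-colour Agilent array. All 5 of the heart muscle miRNAs used to check the tissue (miR-1-3p, miR-133a-3p, miR-208a-3p, miR-208b-3p and miR-499-5p) were detected on all 6 arrays.

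A miRNA gene is transcribed into a hairpin, from which an enzyme cuts a short duplex of a 5′ and a 3′ strand. Usually 1 strand is kept in the silencing complex, where its seed, bases 2 to 8, pairs with messenger RNAs, and the other is degraded. In humans the miR-224 gene lies inside GABRE, the gene of the epsilon subunit of the GABA-A receptor, next to the gene of miR-452. The 5′ strand is the one usually meant by the name miR-224. It is raised in human liver cancer, and in mouse granulosa cells of the ovary it is raised by TGF-beta and lowers Smad4, a transducer of TGF-beta signals.

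The sequences are shown because the arrays measured the strands of this hairpin separately and with different outcomes. They are from RefSeq (GRCr8), with the seed of each strand in capitals and, in the hairpin, both mature strands in capitals.
rno-miR-224-3p: aAAUGGUGcccuagugacuaca
rno-miR-224-5p: cAAGUCACuagugguuccguuu
Mir224 hairpin: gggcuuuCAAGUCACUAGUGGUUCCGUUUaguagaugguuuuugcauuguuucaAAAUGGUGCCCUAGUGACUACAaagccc
The hairpin of 82 bases lies on the minus strand of the X chromosome at chrX:155107130-155107211, inside the span of Gabre (chrX:155102078-155120821, minus strand). The 5p strand takes bases 8 to 29 of the hairpin and the 3p strand bases 55 to 76, with a loop region of 25 bases between them. The longest perfect Watson-Crick match between the strands runs over 9 bases, from base 3 to base 11 of the 5p strand and from base 11 to base 19 of the 3p strand. The strands thus carry unlike seeds. Of the 685 array miRNAs with a RefSeq sequence, 0 others share the 7-base seed of miR-224-3p and 0 others that of miR-224-5p.

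miR-224-3p was dim but well above background on every array, and its signal was lower on all 3 high-fat arrays. The processed signal, which the scanner software corrects for background but does not scale between arrays, is given first. On the brighter of the 2 probes (probe 1) it was 44.2, 47.9 and 38.3 on chow replicates 1, 2 and 3. On the high-fat replicates it was 24.2, 23.2 and 25.4. The lowest chow array thus lay well above the highest high-fat array, and the high-fat arrays lay close together.

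Probe 2 of the same strand, a separate set of spots, gave 31.7, 32.2 and 29.7 on chow. On the high-fat diet it gave 20.4, 21.7 and 23.1. The diets did not overlap on this probe either, although the step was smaller. The software's own total over both probes was 41.1, 42.0 and 37.1 on chow and 23.5, 24.3 and 26.5 on the high-fat arrays.

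Every probe had 8 spots per array, and all 24 chow spots and all 24 high-fat spots of each probe were well above background. On probe 1 the spots kept after outlier removal ran from 34.6 to 56.1 on chow (22 spots) and from 19.4 to 28.9 on the high-fat diet (22 spots), so no high-fat spot reached the dimmest chow spot. On probe 2 the ranges touched, from 25.8 to 36.7 on chow (20 spots) and from 16.8 to 26.2 on the high-fat diet (23 spots), and 21 of the 23 high-fat spots lay below every chow spot. Spots of a probe sit at the same 8 positions on each array, and at 8 of 8 positions on each probe all 3 high-fat arrays were below all 3 chow arrays. Within an array the spots of 1 probe varied by a coefficient of variation of 5.24% to 15.6% (median 9.86%). Spots of an array share its RNA and are not replicates of the diet.

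**Figure D1:**
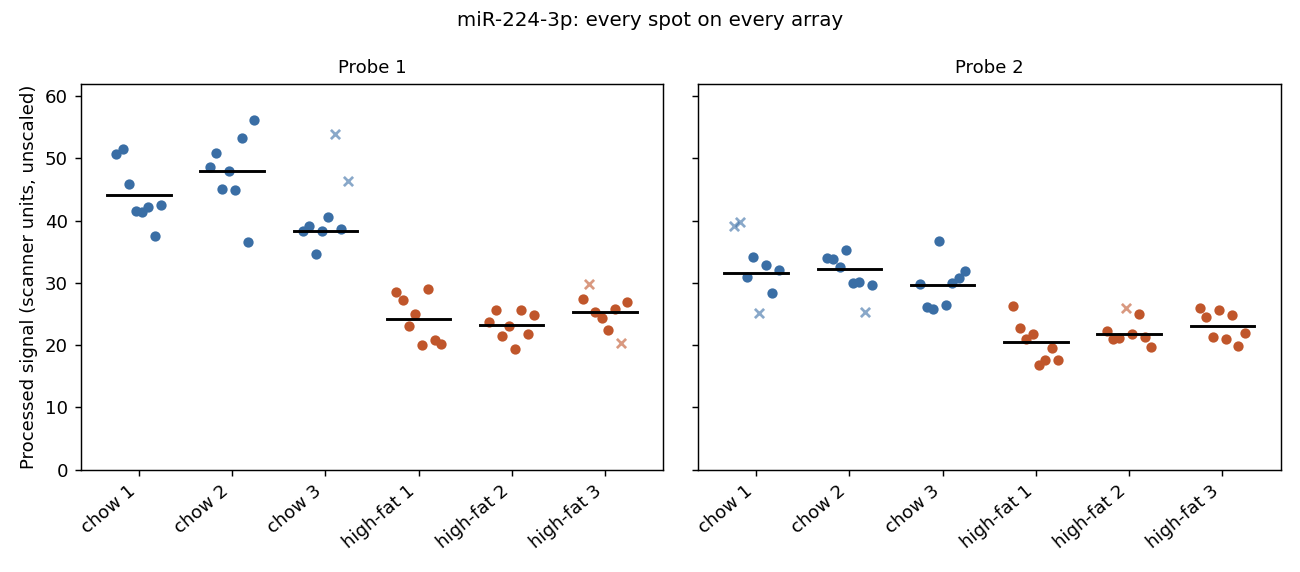
Processed signal of miR-224-3p (vertical axis, scanner units, not scaled between arrays) for the 8 spots of each of its 2 probes on the 3 chow (blue) and 3 high-fat arrays (orange). Filled points are spots well above background, crosses are outlier spots left out, and black lines are the array means, which on probe 1 lie between 38.3 and 47.9 on chow and between 23.2 and 25.4 on the high-fat diet.

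The uncorrected median signal and the local background around the spots were set side by side, because a dim probe is sensitive to background. The median signal of probe 1 was 66.5 ± 7.06 on chow and 46.5 ± 2.73 on the high-fat diet, and that of probe 2 was 53.0 ± 3.76 and 44.1 ± 1.48 (SD, n = 3 arrays each). The local background at these spots was 13.4 ± 2.08 and 14.3 ± 2.18 for probe 1, and 13.5 ± 2.10 and 13.5 ± 2.15 for probe 2. The background thus differed between the diets by less than its spread between arrays, while the signal above it differed by more. On probe 1 the signal was 4.72 to 5.34 times the local background on chow and 2.95 to 3.58 times on the high-fat diet.

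The high-fat arrays were brighter on average, so scaling widens the difference, although high-fat replicate 1 was not brighter than chow replicate 2. Signals were expressed relative to their array's 75th percentile over the probes detected on all 6 arrays. This percentile was 359, 424 and 376 on chow and 415, 532 and 561 on the high-fat arrays. After that step probe 1 stood at 12.3%, 11.3% and 10.2% of the percentile on chow and at 5.84%, 4.36% and 4.52% on the high-fat diet. On the log2 scale this was -3.02, -3.15 and -3.30 on chow and -4.10, -4.52 and -4.47 on the high-fat diet. The log2 difference, high-fat minus chow, was -1.21 (2.31-fold lower), from -3.16 ± 0.14 to -4.36 ± 0.23 (SD, n = 3 each), and on probe 2 it was -0.89 (1.85-fold lower). Without any scaling probe 1 differed by -0.84 (1.79-fold lower) and probe 2 by -0.52 (1.43-fold lower), in a setting where the median of all 425 miRNAs moved from -0.04 to 0.32. In bulk tissue, fewer cells that make a miRNA and less of it per cell cannot be told apart.

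Among the 425 tested miRNAs, 0 had a larger fall than miR-224-3p and 3 had a larger difference in either direction. That rank changed in 6 of 27 alternatives: 5 miRNAs had larger falls in the authors' deposited value table, 3 with normexp and quantile normalisation, 2 with outlier spots kept, 2 with a floor 4 times higher, 1 with normexp and the 75th percentile and 1 without high-fat replicate 3. The range from the 5th to the 95th percentile of all differences was -0.35 to 0.37. The next falls were those of miR-208b-3p (-0.97) and miR-3573-5p (-0.79). Their high-fat arrays were spread more widely, with SDs of 0.69 and 0.61 on the log2 scale against 0.23 for miR-224-3p. Their chow arrays were not, with SDs of 0.05 and 0.13 against 0.14. Arrays of the diets did not overlap for 45 of the 425 with the high-fat side lower (10.6%) and for 28 with it higher (6.59%), and 50 had an unadjusted p under 0.05 (11.8%). The fit called 1 miRNA as lower (0.235%), miR-224-3p, and 1 as higher, miR-141-3p, a member of the epithelial miR-200 family with a log2 difference of 1.71 ± 0.25 SE (limma adjusted p = 0.0423). The strand miR-224-3p was chosen by its own call, so its call and its rank are descriptions and no test. Neither call was stable. That of miR-224-3p was lost in 11 of 27 alternatives, namely a filter of at least 1 array, no filter, a floor 4 times higher, quantile normalisation, the value table, slide as a block, within slide 1, and leaving out chow replicate 2, chow replicate 3, high-fat replicate 2 or high-fat replicate 3. That of miR-141-3p was lost in 15 of the 27, with adjusted p up to 0.318 when no filter on dim probes was used.

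**Figure D2:**
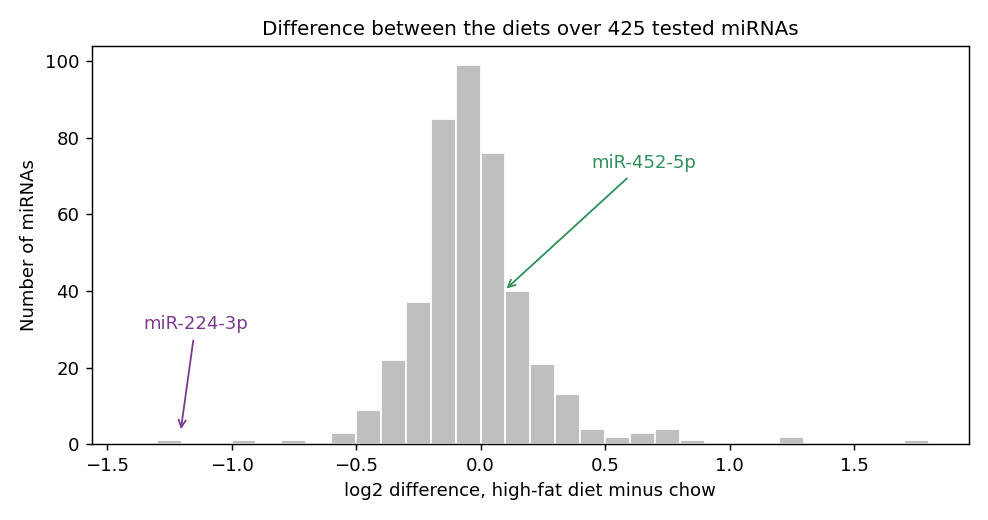
Number of miRNAs (vertical axis) by log2 difference between the diets, high-fat minus chow (horizontal axis, bins of 0.1), over the 425 miRNAs tested. miR-224-3p lies at the left end at -1.21 and miR-452-5p near the middle at 0.09.

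The size of the difference depends on how dim signals are treated. It was below 0 in 29 of 29 alternatives and ranged from -1.34 to -0.43. Not all of these could move it. The other filters, a floor 4 times lower, another variance model, a replicate block and probe 1 alone left it at -1.21. The arrays of the diets did not overlap, so leaving out 1 array could not turn its sign. The smallest values came with another background correction, normexp with an offset of 50, at -0.60 with the 75th percentile and -0.43 with quantile normalisation. With a floor 4 times higher, which lies above all 3 high-fat values of the strand, it was -0.66. The slides were not balanced: chow replicate 1 shared slide 1 with the whole high-fat group, and the remaining chow arrays were on slide 2, which gives no value of its own. The difference was -1.34 within slide 1 and likewise -1.34 with slide as a block, but its SE rose from 0.14 to 0.21 and 0.20 and the call ended in both, so slide and diet are only partly told apart. Leaving out 1 array at a time gave -1.34 to -1.13.

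Several other measures moved with the diets. The stringency spike-in ratio, a hybridisation quality value in the file headers, was 3.44 to 4.19 on chow and 0.974 to 1.94 on the high-fat arrays, and 391 to 418 miRNAs against 414 to 472 were well above background. The 4 erythroid marker miRNAs, all detected on all 6 arrays, had summed scaled signals of 10.6 to 12.8 on chow and 15.3 to 21.5 on the high-fat diet. Their log2 differences were 1.30 for miR-144-3p, 0.57 for miR-451-5p, 0.61 for miR-144-5p and 0.0076 for miR-486. Arrays of the diets overlapped for miR-144-5p and miR-486. Of the 7 epithelial markers 3 were detected on all 6 arrays by the software's flag and 1 on none. The 4 tested ones summed to 0.450 to 0.591 on chow and 0.746 to 0.880 on the high-fat diet. Their log2 differences were unlike: 1.71 for miR-141-3p, 1.27 for miR-200c-3p, 0.31 for miR-205 and -0.05 for miR-203a-3p. Arrays of the diets overlapped for miR-205 and miR-203a-3p. The 5 heart muscle markers summed to 212 to 216 on chow and 167 to 201 on the high-fat diet, with a median log2 difference of -0.22 that turned to 0.15 without scaling. Summed signals overlapped between the diets for the 4 tested adipose markers (1.95 to 2.37 against 2.03 to 2.11), the 4 fibroblast markers (19.5 to 21.1 against 20.7 to 22.1) and the 3 endothelial markers (68.9 to 72.5 against 62.1 to 73.3). The part of these measures in the difference of miR-224-3p was not tested.

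The partner strand, miR-224-5p, stayed at or near background. Probe 1 of this strand had processed signals of 1.31, 0.245 and 0.957 on chow and 2.31, 3.96 and 3.85 on the high-fat arrays, with 0 of 48 spots well above background. Probe 2 had 5.27, 5.09 and 2.80 on chow and 6.07, 9.73 and 8.51 on the high-fat arrays. On probe 2, 0 of 24 chow spots were well above background, and 9 of 24 high-fat spots were, 4 on replicate 2 and 5 on replicate 3. Processed signals were thus higher on high-fat replicates 2 and 3, the 2 brightest arrays in the series, than on the other 4 arrays. The uncorrected median signal did not follow this order. On probe 2 it was 25.9, 30.5 and 22.9 on chow and 31.1, 30.6 and 28.9 on the high-fat arrays.

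The array's negative controls place the processed values. After background correction the controls averaged -0.751, -1.42 and -1.37 on chow, with SDs of 2.57, 2.48 and 2.27 over control spots, and -1.44, -2.06 and -1.98 on the high-fat arrays, with SDs of 1.99, 1.98 and 1.58. The spread of the controls was thus smaller on each high-fat array, and a given signal stood further above it. Divided by the 75th percentile, probe 2 was at 1.47%, 1.20% and 0.745% on chow and at 1.46%, 1.83% and 1.52% on the high-fat arrays, and chow replicate 1 was as high as high-fat replicate 1.

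**Figure D3:**
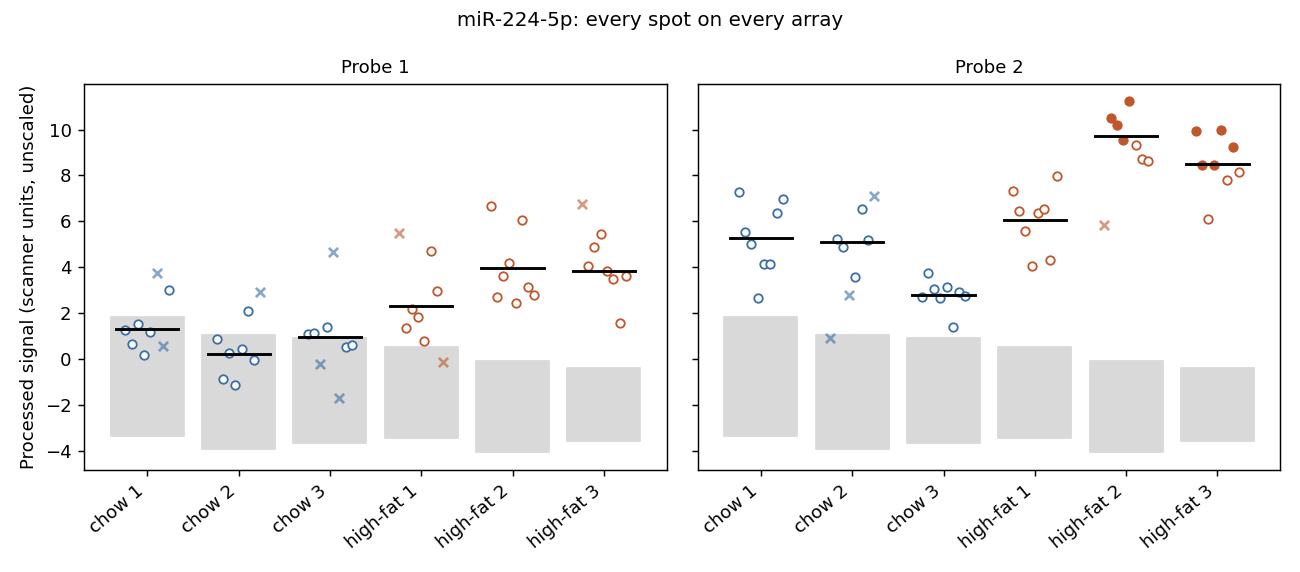
Processed signal of miR-224-5p (vertical axis, scanner units, not scaled between arrays) for the 8 spots of each of its 2 probes on 3 chow (blue) and 3 high-fat arrays (orange). Filled points are spots well above background, open points are not, crosses are outlier spots left out, black lines are array means and grey bands are the mean ± SD of the negative control spots. Filled points appear on probe 2 of high-fat replicates 2 and 3 alone.

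No fold change was given for miR-224-5p. On 5 of 6 arrays its scaled signal was under the floor set for dim signals, where values have no order. Its high-fat mean of -5.97 lay below the bound that the dimmest detected probes set on chow (-5.31), so the chow arrays could not show a lower level than the one measured. The rule for detection was met on 0 chow arrays and 2 high-fat arrays. By the same rule 26 of the 758 miRNAs (3.43%) were seen on high-fat replicates 2 and 3 alone. More broadly, 31 miRNAs were absent by this rule from chow and present on 2 or more high-fat arrays, and 0 showed the opposite. Detection therefore gives no direction for this strand. Across alternatives its difference ranged from -0.19 with normexp and the 75th percentile to 1.11 in the authors' deposited value table. That table follows the software's total, which was 0.1 on every array without detection and 5.28 and 4.64 on high-fat replicates 2 and 3. The 1.11 thus reflects detection and is not a measured fold change.

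Unequal detection of the strands of 1 hairpin was common on these arrays. Of 281 hairpins with both strands on the array, 102 had both tested, 62 neither and 117 one only, which was the 5p strand in 56 and the 3p strand in 61, among them miR-224. In the 102 hairpins with both strands tested, the diet difference of the 2 strands lay on the same side of 0 in 66. The difference between their diet differences had a median size of 0.14 on the log2 scale, and the 90th percentile was 0.42.

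miR-452, the other miRNA of the human GABRE locus, was measured on the same arrays and its 5p strand showed no such fall. The processed signal of miR-452-5p on its brighter probe was 42.7, 42.9 and 31.9 on chow. On the high-fat diet it was 42.3, 66.0 and 54.8. Scaled to the 75th percentile, the log2 signals were -3.07, -3.31 and -3.56 on chow and -3.30, -3.01 and -3.35 on the high-fat diet. The arrays of the diets overlapped. The log2 difference was 0.09 ± 0.15 SE with a 95% interval of -0.27 to 0.45 (limma adjusted p = 0.855), so a fall of the size measured for miR-224-3p lies outside that interval, and smaller changes in either direction lie inside it. Without scaling the difference was 0.46, above that interval, beside a median of 0.32 for all miRNAs. The limma adjusted p ranged from 0.223, in that setting, to 1 over 27 alternatives. miR-452-3p, like miR-224-5p, was near background: on its brighter probe 0 of 24 chow spots were well above background, and 5 spots on high-fat replicate 2 and 2 on high-fat replicate 3 were.

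The ratio of miR-224-3p to miR-452-5p within an array needs no scaling. Probes differ in how brightly they report, so only its change between arrays is read. With the brighter probe of each it was 1.04, 1.12 and 1.20 on chow and 0.573, 0.351 and 0.463 on the high-fat arrays. Its values did not overlap between the diets, and the high-fat ratios were lower by a log2 change of -1.30 (0.16 ± 0.11 on chow and -1.14 ± 0.35 on the high-fat diet, SD, n = 3 each). With the other combinations of probes the change was -0.98, -1.34 and -1.03. Since miR-224-3p was chosen for its fall, this change has no test.

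**Figure D4:**
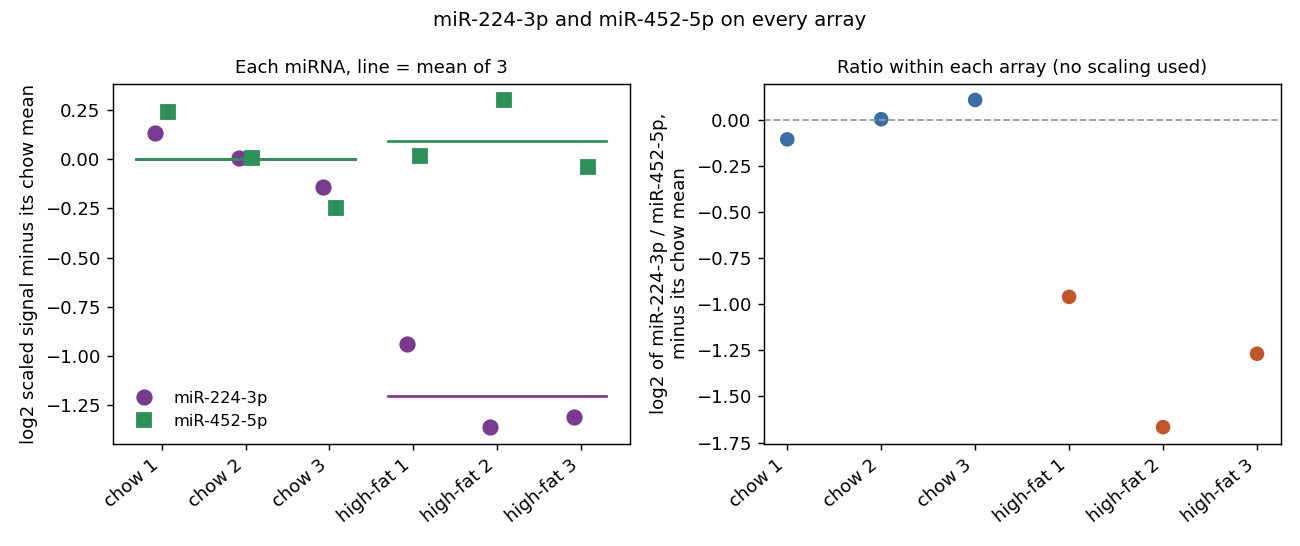
Left, log2 scaled signal of miR-224-3p and miR-452-5p on each array minus the mean of the 3 chow arrays, with lines at the mean of each diet. Right, log2 of the ratio of miR-224-3p to miR-452-5p within each array minus its chow mean, which is -1.30 on average on the high-fat arrays.

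By the RefSeq annotation the nearest miRNA genes to Mir224 in the rat, Mir105 at 373.7 kb and Mir5132 at 1822.2 kb, had no tested member, and no tested miRNA lay on the side of higher coordinates. On the other side the nearest tested ones were those of Mir509, 3.37 Mb away, and Mir547, 3.39 Mb away. Their log2 differences were 0.10 for miR-509-5p, -0.13 for miR-509-3p, -0.26 for miR-547-5p and -0.10 for miR-547-3p, with limma adjusted p-values from 0.419 to 0.772. No change was detected in these 4.

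Over the whole X chromosome, 61 of 108 other miRNAs on the array were tested and 0 were called in either direction, which is near the 0.471% called over all 425 and so says nothing particular about the chromosome. Their median log2 difference was -0.03, beside -0.04 for all 425, with 25 above and 36 below 0 (without scaling it was 0.34 beside 0.32). The 4 with the smallest p were miR-532-5p at 0.47 ± 0.10, miR-362-3p at 0.40 ± 0.10 and miR-500-3p at 0.37 ± 0.11, which belong to 1 X-linked cluster in humans and mice, and miR-374-5p at -0.33 ± 0.11 (SE, limma adjusted p from 0.145 to 0.297). Of the 61, 4 also have a gene copy on another chromosome.

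Lists of miRNAs linked to TGF-beta signalling and to fat cells were described by counts. The link of miR-224 to TGF-beta given above is one of its 5p strand, which was near background here. Of 21 miRNAs linked to TGF-beta signalling, 16 were tested and 0 were called, beside 0.471% of all 425, a share at which a list of this size is not told apart from the rest. The median was -0.0036, beside -0.04 for all (0.37 beside 0.32 without scaling). Those with the smallest p were miR-21-5p, abundant in activated fibroblasts, at 0.27 ± 0.10, miR-18a-5p at 0.17 ± 0.11, miR-199a-5p at 0.14 ± 0.11 and miR-29c-3p, which targets collagen messages, at -0.08 ± 0.09 (SE, limma adjusted p from 0.409 to 0.772). Of 22 miRNAs linked to fat cell differentiation and lipid storage, 19 were tested and 0 were called, again beside 0.471% of all 425. The median was -0.09, beside -0.04 for all (0.27 beside 0.32 without scaling). Here the smallest p belonged to miR-193b-3p, abundant in brown fat, at -0.47 ± 0.13, miR-130b-3p at -0.34 ± 0.13, miR-30c-5p at -0.28 ± 0.12 and miR-448-3p at -0.31 ± 0.14 (SE, limma adjusted p from 0.257 to 0.412).

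Some miRNAs followed the same pattern over the arrays with smaller steps. The measure was Pearson's correlation of scaled log2 signal with miR-224-3p over the 6 arrays, which share 2 slides and fall into 2 diets, so it mainly finds miRNAs that were lower on the high-fat diet, and it has no p. Of 424 other miRNAs 13 had a correlation above 0.9 and 7 one below -0.9. The 5 highest were miR-181c-3p (0.97), miR-6328 (0.97), miR-6326 (0.96), miR-3084a-3p (0.96) and miR-22-5p (0.96). Their log2 differences were -0.25, -0.31, -0.48, -0.33 and -0.19 in that order, all smaller than that of miR-224-3p, and without scaling only that of miR-6326 among these 5 stayed below 0. The 3 lowest were miR-362-5p (-0.98), miR-532-5p (-0.98) and miR-362-3p (-0.97), with differences of 0.38, 0.47 and 0.40. miR-452-5p had a correlation of -0.21.

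Within the diets, using deviations from each diet's mean, the 3 highest correlations with miR-224-3p were those of miR-138-2-3p (0.98), miR-187-5p (0.97) and miR-26b-3p (0.96). Their differences between the diets were -0.20, -0.14 and 0.22. Likeness within the diets thus did not go with a like step between them for any of the 3. The step of miR-26b-3p, which was well above background on 4 of 6 arrays, was in the other direction.

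**Figure D5:**
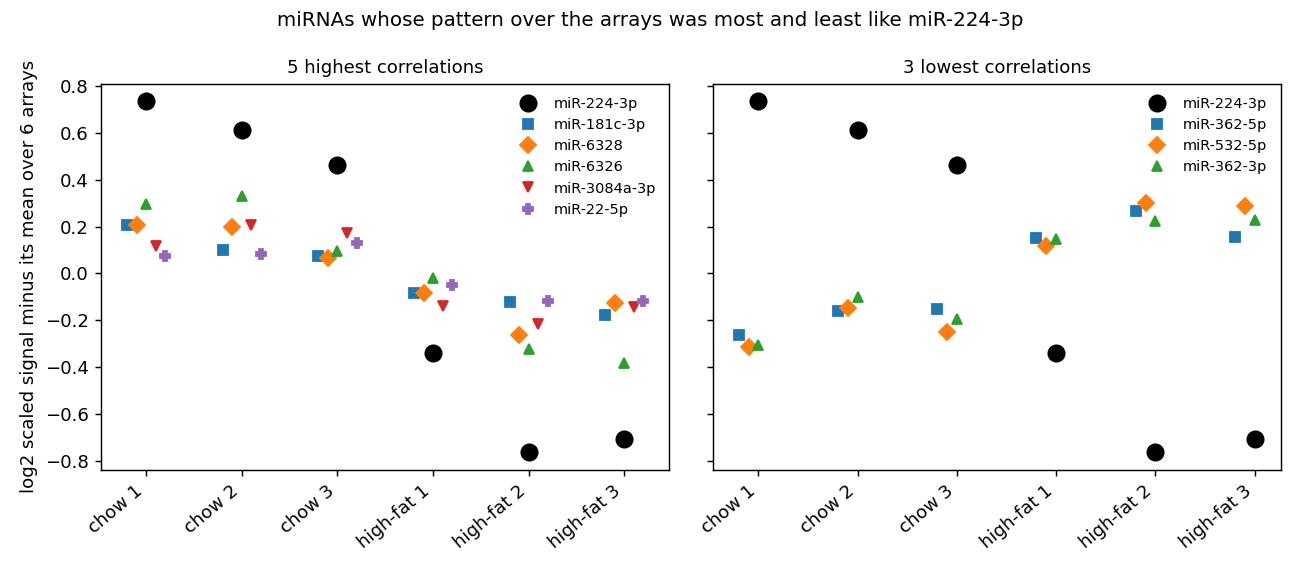
log2 scaled signal minus its mean over the 6 arrays (vertical axis) for miR-224-3p (black) and, left, the 5 miRNAs with the highest and, right, the 3 with the lowest correlation with it. The step between the diets is -1.21 for miR-224-3p, between -0.48 and -0.19 for the left-hand miRNAs and between 0.38 and 0.47 for the right-hand ones.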

How the data were processed

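Agilent Feature Extraction 11.0.1.1, per the file headers, made the deposited intensity values, 1 array per sample, background-subtracted and detrended per array and not scaled between arrays. The deposited flags (well above background, outlier, saturated), used as other values, come from the same software. The deposited value table holds log2 values; set against the scanner files it follows log2 of the software's total intensity per miRNA, quantile normalised (column medians 3.55 to 3.56), and how the authors made it is not given in the sources used here.

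Of 12128 spots for 1806 probes, 0 were saturated and 9.07% to 9.42% per array were outliers and left out, as were 715 control spots. Spots of a probe were averaged and divided by the array's 75th percentile over 757 probes, those with at least 50% of spots well above background on each of 6 arrays. A floor at the 1st percentile of detected signals (log2 of -5.82) was set and log2 taken. The brightest probe stood for its miRNA, and miRNAs above background on at least 3 arrays (425) were fitted with limma 3.58.1 in R 4.3.3 (lmFit, eBayes, Benjamini-Hochberg, threshold 0.05, no covariate). Precision is limited by having 3 arrays per diet. On simulated data with 425 miRNAs, 60 of them changed, changes of 0.5 (log2) were recovered in 63.7% and changes of 1 in 91% of cases, with 5.09% false calls. The simulated noise was independent between arrays, with no slide effect, and 60 miRNAs changed, against 2 called here. Recovery in these data may therefore be lower.

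The members, the lists and the tests were chosen with earlier results of these data known. miRNAs were named by rule: the members, miR-452, sharers of a seed, neighbours on the X chromosome, the miRNAs called, the 4 smallest p of each pathway list, and those most and least correlated with miR-224-3p. Markers are the cell type lists. The choice of miR-208b-3p and miR-3573-5p came after seeing their values. Replicate numbers were checked for pairing: deviations of same-numbered arrays correlated at 0.22, -0.01 and 0.06, so they were not treated as pairs. RefSeq (GRCr8) held 685 of the 758 miRNA names. miR-452 was matched by name on the array and not located in the rat genome.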

Additional observations from a re-analysis of the deposited data

How the results depend on the processing

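The fall of miR-224-3p kept its direction in 29 of 29 alternatives, several of which could not change it, while its call was lost in 11 of 27. It moved by more than its spread with normexp and the 75th percentile (-0.60) or quantile normalisation (-0.43). So it did with a floor 4 times higher (-0.66), no scaling (-0.84) and probe 2 alone (-0.89). The difference of miR-224-5p, 0.02 at the floor, was 0.0469 with the 75th percentile over all probes, 0.54 with a floor 4 times lower, -0.0671 with median signal minus local background, -0.19 with normexp and the 75th percentile, 1.11 in the value table and 0.54 with the software's total, so it has no settled direction. That of miR-452-5p was below 0 with normexp and the 75th percentile (-0.10), with slide as a block (-0.15) and within slide 1, a comparison chosen after seeing the data (-0.15), ran from -0.0298 to 0.21 without 1 array at a time (below 0 without chow replicate 3 or high-fat replicate 2), was 0.46 without scaling, and was called in 0 of 27 alternatives.

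The number of miRNAs called, 2, was 0 with a filter of at least 1 array, no filter, a floor 4 times higher, quantile normalisation, the value table, slide as a block and within slide 1, 1 with the mean over probes or outlier spots kept, 5 with no scaling, 8 with normexp and the 75th percentile, and 0 to 3 without 1 array (0 without chow replicate 2 or 3 or high-fat replicate 2 or 3, 1 without high-fat replicate 1, 3 without chow replicate 1). With a replicate block it was 3. In the limma fit as reported, 50 of 425 miRNAs had an unadjusted p under 0.05. The same-numbered arrays share only a number, and 3 of 6 arrays correlated best with their own number.

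Without scaling, where the median of all miRNAs was 0.32, the sign turned for several list medians. These were the X chromosome (0.34), TGF-beta (0.37) and fat cell lists (0.27), and the heart muscle (0.15), adipose (0.23) and endothelial markers (0.29). The sign also turned for miR-374-5p (0.0351), miR-29c-3p (0.29), miR-130b-3p (0.0321), miR-30c-5p (0.0937), miR-448-3p (0.0627), miR-509-3p (0.24), miR-547-5p (0.11), miR-547-3p (0.27), miR-181c-3p (0.11), miR-6328 (0.0567), miR-3084a-3p (0.0372), miR-22-5p (0.18), miR-138-2-3p (0.17) and miR-187-5p (0.23). With quantile normalisation the medians of the X chromosome (0.0024), TGF-beta (0.0720) and endothelial lists (0.0170) also lay above 0. With normexp and the 75th percentile it turned for miR-18a-5p (-0.0175), miR-509-5p (-0.18), miR-362-5p (-0.0234) and miR-26b-3p (-0.17), with median signal minus local background for miR-509-5p (-0.0574), and in the value table for miR-29c-3p (0.0283) and miR-26b-3p (-1.07). The cause was not tested. Signal near background limits miR-224-5p and miR-452-3p, which these arrays could not compare.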
